A study of Mus musculus with 495 samples.

Results

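Immediate early genes are the first genes that a cell transcribes after a signal, and 10 of them (Fos, Fosb, Jun, Junb, Jund, Egr1, Atf3, Ier2, Dusp1 and Cyr61) were followed through 495 single cells of the embryonic mouse pancreas. The members were chosen by name from the 23002 genes of the count table, and all 10 had a row. The study examined endocrine development with full-length single-cell RNA-seq (Smart-seq2), 1 library per cell, on 7 plates. Plates EA06 (57 cells) and EA07 (72 cells) came from E17.5 embryos carrying Neurog3-Cre and Rosa-mTmG, under the plate code Neurog3-cre. Of the E15.5 plates, all from the Neurog3-eGFP line, EA02 (72 cells) and EA05 (85 cells) had the code endocrine, EA01 (73 cells) and EA03 (70 cells) the code Neurog3, and EA04 (66 cells) the code duct. Neurog3 is the transcription factor that starts the endocrine programme, the eGFP line is a knock-in reporter of it, and the Cre line with its membrane reporter marks cells that express or have expressed Neurog3. The labels name no embryo, litter, sort gate or dissociation step, so each group of cells counts as 1 sample. No test between groups was therefore made, and all intervals below are 95% intervals that cover counting error only.

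Immediate early genes need no new protein to be switched on: kinase signals act on factors already bound at their promoters, and the transcripts last only briefly. Fos and Jun family proteins pair to form the AP-1 transcription factor, while Dusp1 and other targets switch the signal off again. In single-cell work the same genes are known to be induced by enzymatic dissociation and sorting of a tissue, so their level can record the state of the tissue, its handling or both.

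Each cell had between 200152 and 1182889 assigned reads, with a median of 533363. EA07 stood apart, with a median of 851992 reads and 3902.5 detected genes per cell, against 551913 reads and 2295 genes on EA06. After every cell was thinned to 200000 reads the medians were still 3660.5 genes on EA07 and 2137 on EA06. The ribosomal precursor Rn45s took between 8.83% and 10.3% of reads on EA05, EA06 and EA07, and between 20.6% and 23.04% on the other 4 plates. Endocrine markers (Chga, Chgb, Neurod1, Pax6, Isl1 and Fev) were all above 20 CPM (reads of a gene in a library scaled to 1000000 reads) on every plate except EA04, where 1 of 6 was. Immune and erythroid markers were below 20 CPM on all 7 plates. Of 5 endothelial markers, 2 were at 20 CPM or more on EA04, where the list summed to 83.9 CPM over the plate and to 3643 CPM in its highest cell, and 0 were on the other 6 plates. The plate coded duct went against its label in part: 43 of its 66 cells had the acinar enzyme Cpa1 at 1000 CPM or more, and 13 others had the mesenchymal collagen Col3a1 at 100 CPM or more. At E15.5, 2 cells with a hormone gene at 1000 CPM or more stood apart as well, 1 on EA02 whose 10 acinar markers summed to 45341 CPM and 1 on EA03 whose 8 mesenchyme markers summed to 11941 CPM.

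Among the AP-1 subunits, Fos (chromosome 12, 85473890 to 85477273, plus strand, GRCm38) was the most abundant. Its summed level was 1823 CPM on EA06 and 2800 CPM on EA07, against 920.5 CPM on EA02, 1080 CPM on EA05, 1391 CPM on EA01, 839.0 CPM on EA03 and 494.9 CPM on EA04. Both E17.5 plates were thus above all 5 E15.5 plates. Single cells overlapped widely: on each of the 7 plates the lowest cell had no Fos read, the median cell lay between 237.8 CPM (EA04) and 1652 CPM (EA07), and the highest cell between 3852 CPM (EA03) and 9646 CPM (EA07). In all, 378 of 495 cells (76.4%, Clopper-Pearson interval 72.4% to 80.04%) had Fos at 50 CPM or more, and 86 cells had none.

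Fosb (chromosome 7, 19302696 to 19310051, minus strand), which encodes a second partner of the Jun proteins, was far sparser. It reached 50 CPM in 26.9% of cells and had no read in 304. Its summed level was 132.4 CPM on EA06, 37.2 CPM on EA07, 41.99 CPM on EA02, 131.8 CPM on EA05, 102.1 CPM on EA01, 50.02 CPM on EA03 and 25.1 CPM on EA04. The order did not follow stage, since the E17.5 plates were the highest and the second lowest of the 7.

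Jun (chromosome 4, 95049034 to 95052222, minus strand), the partner through which AP-1 acts most widely, was set apart by 1 plate. It stood at 143.3 CPM on EA06 and 880.5 CPM on EA07, against 173.2 CPM on EA02, 54.01 CPM on EA05, 173.2 CPM on EA01, 130.5 CPM on EA03 and 179.4 CPM on EA04. On EA07, 88.9% of cells reached 50 CPM, against 25.9% on EA05 and between 31.4% and 62.1% on the other 5 plates. Junb (chromosome 8, 84974484 to 84978718, minus strand) and Jund (chromosome 8, 70698949 to 70700616, plus strand) were also highest on EA07. Unlike Jun, both were higher on EA06 than on any E15.5 plate. Junb had 119.2 CPM on EA06 and 356.1 CPM on EA07, and between 73.7 CPM and 97.5 CPM on the E15.5 plates. Jund, the Jun protein that most cells make without a stimulus, had 49.8 CPM on EA06 and 223.9 CPM on EA07, and between 17.53 CPM and 29.2 CPM on the E15.5 plates. Jund was the single member with reads in every cell of a plate: its lowest cell on EA07 had 6.50 CPM.

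The zinc-finger factor Egr1 (chromosome 18, 34859823 to 34864984, plus strand) was the most widely detected member. Its summed level was 820.4 CPM on EA06 and 915.2 CPM on EA07, against 594.7 CPM on EA02, 482.9 CPM on EA05, 848.0 CPM on EA01, 749.5 CPM on EA03 and 402.4 CPM on EA04. EA06, EA07 and EA01 were close together, so the stages overlapped. It reached 50 CPM in 386 cells (77.98%), more than any other member. Atf3 (chromosome 1, 191170296 to 191218039, minus strand), a stress-induced factor of the ATF and CREB family, was carried by few cells. It reached 50 CPM in 27.9% of cells, and the single highest cell gave 30.2% of the summed cell levels on EA06. Its level was 383.7 CPM on EA06 and 309.0 CPM on EA07, and between 103.6 CPM and 267.0 CPM on the E15.5 plates. Both E17.5 plates lay above all 5 E15.5 plates.

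Ier2 (chromosome 8, 84661331 to 84662852, minus strand), a small nuclear protein of the early response, varied least between plates. It had 406.9 CPM on EA06 and 579.0 CPM on EA07, and between 332.2 CPM (EA05) and 575.3 CPM (EA01) on the E15.5 plates. Dusp1 (chromosome 17, 26505590 to 26562128, minus strand), the phosphatase that switches off MAP kinases, had 288.8 CPM on EA06, 558.9 CPM on EA07, 369.7 CPM on EA02, 222.1 CPM on EA05, 642.7 CPM on EA01, 464.2 CPM on EA03 and 101.4 CPM on EA04. The EA04 value was the lowest, and EA01, 1 of the 2 plates coded Neurog3, was the highest. Cyr61 (chromosome 3, 145646976 to 145649981, minus strand; also named Ccn1), a secreted matrix protein, was absent from most cells: 447 had no read and 40 reached 50 CPM. It had 0.211 CPM on EA06 (7 reads, all in 1 cell), 78.3 CPM on EA07, 36.7 CPM on EA02, 1.60 CPM on EA05, 93.7 CPM on EA01, 8.77 CPM on EA03 and 124.1 CPM on EA04. On EA01, 1 cell gave 43.7% of the summed cell levels.

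Divided by the length of the longest coding transcript, the levels over all cells ran from Fos with 703.0 CPM per kilobase, through Ier2 with 307.6, Dusp1 with 197.5, Egr1 with 156.7 and Atf3 with 112.4, to Jun with 93.9, Junb with 82.8, Jund with 42.6, Cyr61 with 23.9 and Fosb with 20.02 CPM per kilobase. The order on each plate differed from this one, since Jun on EA07 (276.1 CPM per kilobase) was above Egr1 there (204.1 CPM per kilobase).

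**Figure D1:**
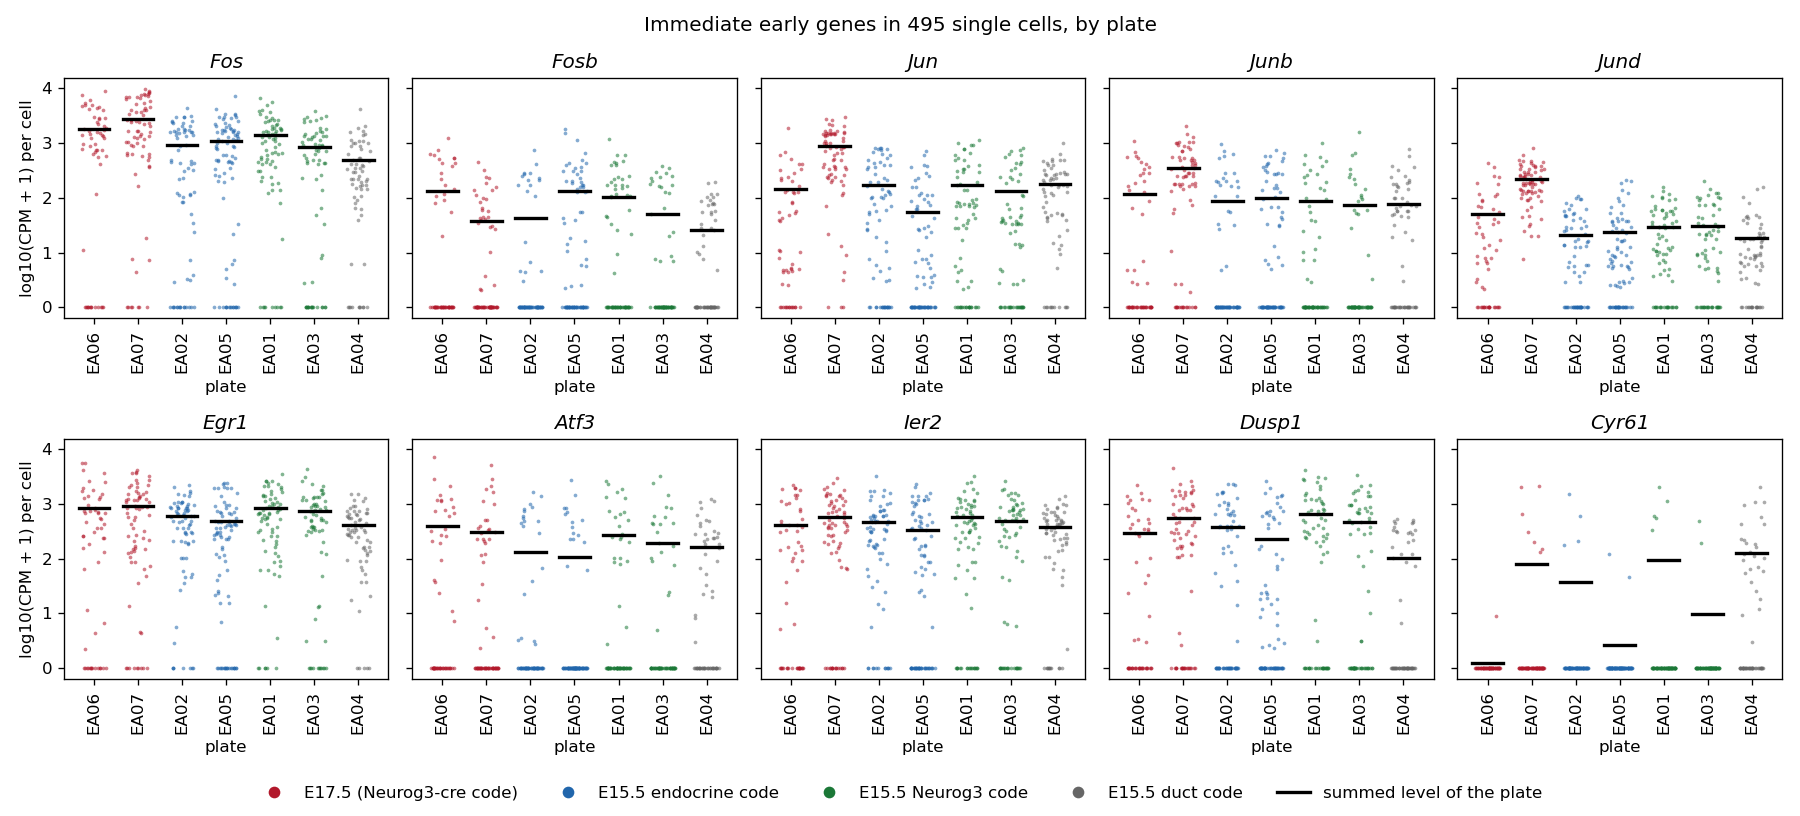
Level of each of the 10 genes in every cell, as log10(CPM + 1), with 1 point per cell, plates on the horizontal axis and black bars for the summed level of a plate. Jun, Junb and Jund were shifted upward on EA07 in most cells, while Fosb, Atf3 and Cyr61 had a majority of cells at 0 on that plate.

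The 2 E17.5 plates carry the same labels, yet they differed in 5 of 10 members by more than 2-fold. On a log2 scale with a pseudocount of 5 CPM, EA07 was above EA06 by 3.999 in Cyr61, 2.58 in Jun, 2.06 in Jund and 1.54 in Junb, and below it by a log2 difference of -1.70 in Fosb. Of all 8367 genes at 20 CPM or more on either plate, 25.9% were more than 2-fold higher and 14.2% lower on EA07. This difference moved with GC content. The median log2 ratio of EA07 over EA06 ran from -0.30 in the tenth of genes with the lowest GC content to 0.80 in the tenth with the highest, where 44.6% of genes were more than 2-fold higher. For EA06 over EA05 the same 10 medians stayed between -0.04 and 0.09. Of the 5 members, Jund and Junb are GC-rich (67.1% and 62.6% of the transcript). Jun has 55.5%, Fosb, which was lower on EA07, has 55.98%, and Cyr61, which differed most, has 52.7%. Ier2, also GC-rich (60.9%), differed by 0.50. How far library preparation, depth and biology of the cells each enter the values of EA07 was not tested, and the counts of members past 2-fold that use EA07 are also given without it.

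**Figure D2:**
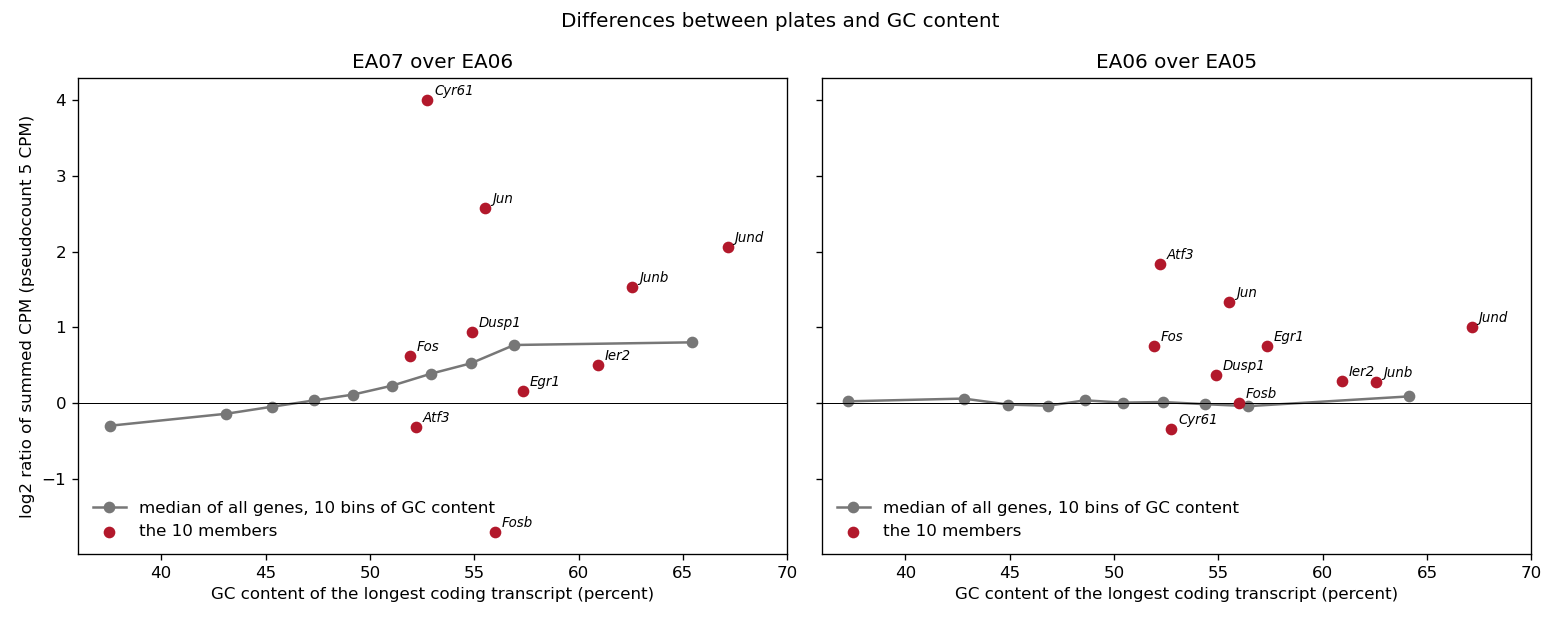
Log2 ratio of summed levels between plates (vertical axis) against the GC content of the longest coding transcript (horizontal axis), for EA07 over EA06 and for EA06 over EA05. Grey points are medians of all genes in 10 bins of GC content and red points are the 10 members. The grey line climbs to 0.80 for EA07 over EA06 and stays near 0 for EA06 over EA05.

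Within a plate the members rose and fell together from cell to cell, though weakly for most pairs. The Spearman correlation of CPM over the cells of a plate had a median of 0.177 ± 0.068 over the 45 pairs of members (SD over 7 plates, range 0.133 to 0.301). Over all pairs of genes at 20 CPM or more on average (between 6974 and 7090 genes per plate) the median was 0.0058. Between 35 and 44 of the 45 pairs were positive on each plate, against 50.7% to 57.3% of all gene pairs. These are descriptions: the cells of a plate share a library set, and many values are 0.

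Fos and Egr1 were the closest pair (median 0.52, from 0.31 on EA01 to 0.69 on EA07). Fos and Fosb followed (0.49, from 0.24 to 0.62), then Fosb and Egr1 (0.39) and Egr1 and Ier2 (0.38). All 4 of these pairs were positive on each of the 7 plates. Fosb was nested within Fos: 34.1% of the 378 cells with Fos at 50 CPM had Fosb at that level, against 4 of the other cells (3.42%). For Egr1 the shares were 84.9% and 55.6%, for Ier2 74.1% and 46.2%, and for Atf3 33.1% and 11.1%.

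The Jun family did not form a block of its own. Jun and Junb correlated at 0.061, Jun and Jund at 0.052 and Junb and Jund at 0.072, below the median of all member pairs. Jun was closer to Fos (0.30) and Fosb (0.29) than to either of its relatives, and Junb was closer to Egr1 (0.36) and Fos (0.36). Jund was the most loosely tied member, with a median of 0.052 over its 9 pairs, and its correlation with Atf3 was 0.010. Cyr61 (median 0.093 over its pairs) also stood at the edge, with reads in few cells.

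**Figure D3:**
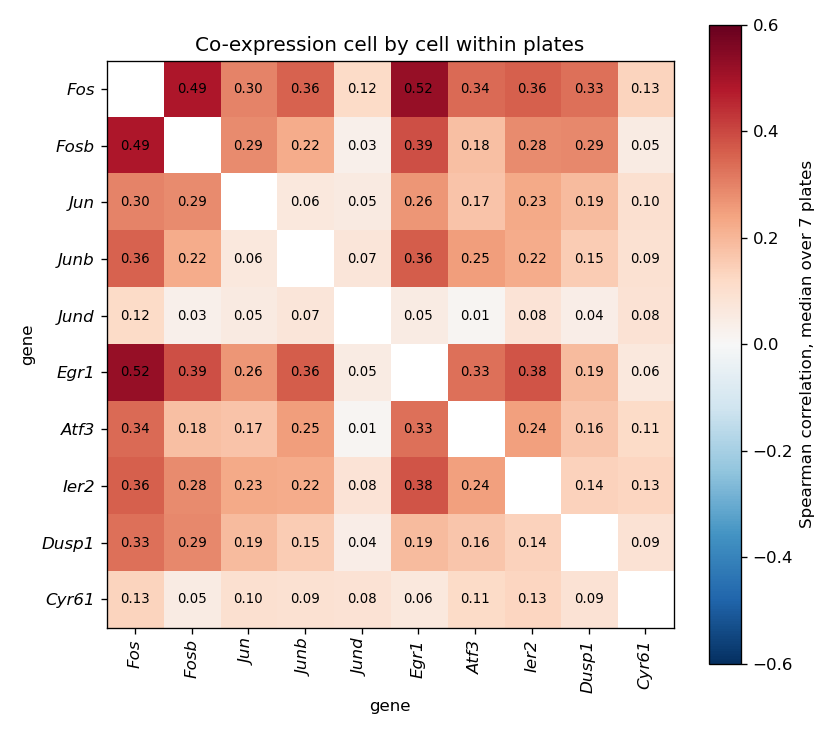
Spearman correlation of CPM between each pair of the 10 genes over the cells of a plate, as the median of 7 plates (red positive, blue negative). Pairs among Fos, Fosb, Egr1, Ier2 and Junb run from 0.22 (Fosb with Junb) to 0.52 (Fos with Egr1). They are not set apart as a block, since Atf3 reaches 0.34 and Dusp1 0.33 with Fos. The row of Jund stays at or below 0.12.

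Promoter sequences from RefSeq (GRCm38.p6) were examined for 7 of the 10 members, all but Egr1, Ier2 and Jund, as windows of 250 bases before to 50 after RefSeq's start of the gene. In all 7 this start lay within 30 bases of the start of a GENCODE transcript, which for Dusp1 and Atf3 was not the outermost one, so their windows stand inside the gene positions given above. The window listed for Jund lay 1210 bases from its GENCODE start and was left out. Those of Fos, Fosb and Dusp1 are shown because they carry the short CRE-like motif TGACG, that of Jun as the 1 of the 7 without it, and that of Cyr61 for its restricted expression. Capitals mark TGACG on either strand (read as CGTCA on the opposite one), its palindromic form TGACGTCA, which contains it, and TATAAA. Every motif was searched on both strands.
Fos (chr12:85473640-85473939, plus strand): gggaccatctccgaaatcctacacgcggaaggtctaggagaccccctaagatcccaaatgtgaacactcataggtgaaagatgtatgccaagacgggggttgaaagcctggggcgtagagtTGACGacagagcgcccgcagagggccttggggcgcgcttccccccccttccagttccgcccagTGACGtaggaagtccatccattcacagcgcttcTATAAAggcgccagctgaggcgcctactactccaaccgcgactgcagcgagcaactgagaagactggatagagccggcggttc
Fosb (chr7:19309996-19310295, minus strand): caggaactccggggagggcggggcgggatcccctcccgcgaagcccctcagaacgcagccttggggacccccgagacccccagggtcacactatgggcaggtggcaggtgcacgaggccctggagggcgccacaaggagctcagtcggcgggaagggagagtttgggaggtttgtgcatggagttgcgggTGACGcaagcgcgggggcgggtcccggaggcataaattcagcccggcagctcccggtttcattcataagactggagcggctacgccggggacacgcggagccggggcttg
Jun (chr4:95052173-95052472, minus strand): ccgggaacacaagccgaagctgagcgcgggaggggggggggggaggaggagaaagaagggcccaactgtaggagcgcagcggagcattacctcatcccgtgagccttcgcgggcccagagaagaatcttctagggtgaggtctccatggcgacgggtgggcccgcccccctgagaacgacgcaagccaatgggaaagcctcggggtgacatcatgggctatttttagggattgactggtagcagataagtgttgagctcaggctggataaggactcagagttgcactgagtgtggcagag
Dusp1 (chr17:26508423-26508722, minus strand): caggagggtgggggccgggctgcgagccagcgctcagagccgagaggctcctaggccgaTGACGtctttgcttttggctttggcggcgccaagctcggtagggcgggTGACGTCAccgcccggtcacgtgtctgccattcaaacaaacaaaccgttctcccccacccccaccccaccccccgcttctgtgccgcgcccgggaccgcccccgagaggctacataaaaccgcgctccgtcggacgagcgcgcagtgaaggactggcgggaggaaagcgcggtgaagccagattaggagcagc
Cyr61 (chr3:145649936-145650235, minus strand): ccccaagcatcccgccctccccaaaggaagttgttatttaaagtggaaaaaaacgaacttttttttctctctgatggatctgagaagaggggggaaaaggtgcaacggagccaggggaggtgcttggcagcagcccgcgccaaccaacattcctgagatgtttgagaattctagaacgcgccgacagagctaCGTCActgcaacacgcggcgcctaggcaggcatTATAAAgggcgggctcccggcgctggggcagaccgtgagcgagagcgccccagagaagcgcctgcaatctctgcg
The letters TGACG were found in 6 of the 7 promoters and in 21.02% of all 27025 promoters. The full palindrome TGACGTCA was found in that of Dusp1 alone among the 7, and in 1.88% of all. TATAAA was found in 3 of the 7 (Fos, Junb and Cyr61) and in 14.2% of all, and GGGCGG in 6 of the 7 and in 35.9% of all. The CArG box, the site class of serum response factor, had no match within these windows and was matched in 1.57% of all, and TGANTCA, the letters of an AP-1 site, had none in the 7 and a match in 7.93% of all. The Jun window holds the letters TGACATCA, close to TGACGTCA, which none of the searched motifs matches. This variant was not counted in the other promoters. A match describes letters and is not evidence of a bound site. The absence of a match covers these 7 windows alone, not bases farther from the start. It does not extend to Egr1, Ier2 and Jund, so the counts do not describe all 10 members.

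Many cells held several members at once. The share expected from how often each member was detected on its own was not computed, so these counts do not measure co-occurrence. At least 5 of the 10 reached 50 CPM in 250 of 495 cells (50.5%, 46.01% to 54.996%), 17 cells had none and 1 cell, on EA07, had all 10. The share was 47.4% on EA06 and 81.9% on EA07 (71.1% to 90.02%), against 44.4% on EA02, 28.2% on EA05, 58.9% on EA01, 28 of 70 cells on EA03 and 56.1% on EA04. EA07 was the highest plate and EA05 the lowest. Of the 43 cells with 8 or more members, 21 were on EA07. By class, 56.6% of hormone-positive cells at E17.5 and 33.3% at E15.5 held at least 5 members, and 72.7% of Neurog3-positive hormone-negative cells at E17.5 and 47.3% at E15.5. Without EA07 the E17.5 shares were 46.4% of hormone-positive cells and 9 of 20 Neurog3-positive cells, and the second of these lay below the E15.5 share, while EA07 alone gave 88.6% of its Neurog3-positive cells. The E15.5 share of hormone-positive cells also differed by plate, with 11 of 50 on EA05. It was 10 of 19 on EA01, 8 of 16 on EA02 and 5 of 17 on EA03. Within a plate, the mean level of the 10 members in a cell had little relation to its depth. The Spearman correlation with total reads lay between -0.087 and 0.159 on the 7 plates, and between -0.243 and 0.182 with detected genes. Across plates, the 43 cells with 8 or more members had medians of 728568 reads and 3697 genes. The 17 cells with none had 511016 reads and 2448 genes.

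**Figure D4:**
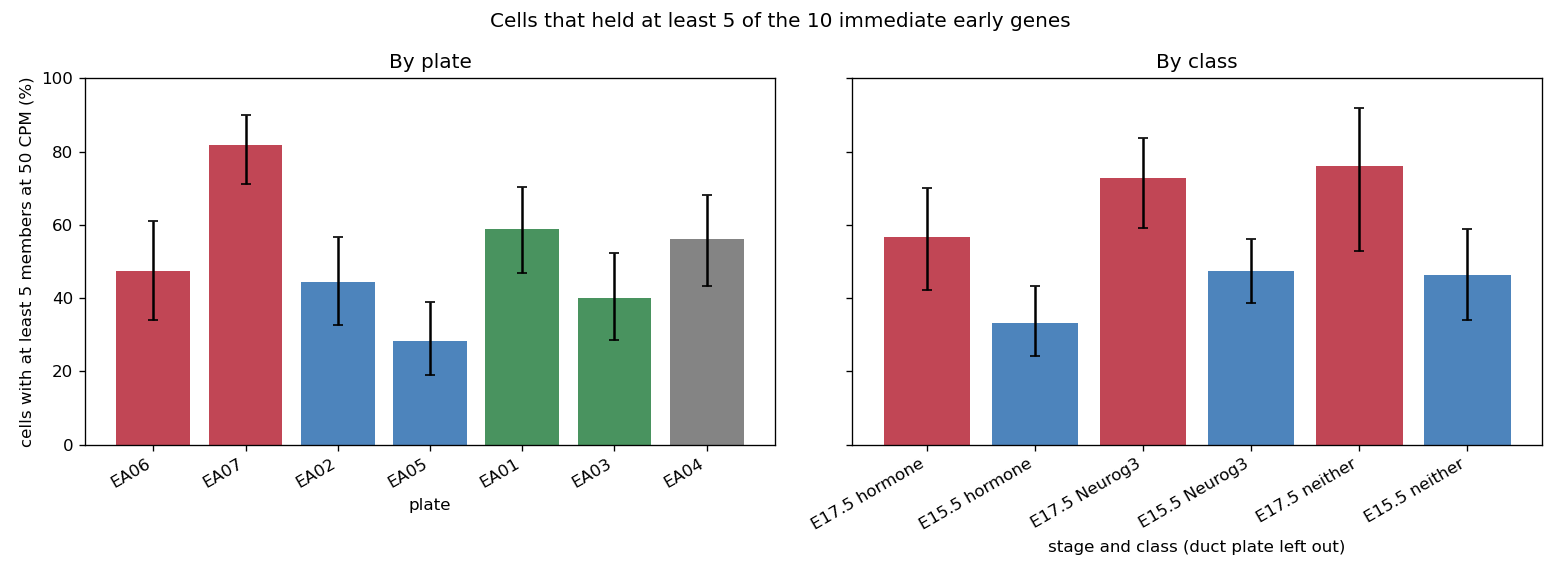
Percent of cells with at least 5 of the 10 members at 50 CPM or more, by plate and by stage and class, with exact 95% binomial intervals as bars. EA07 reached 81.9% and EA05 28.2%, and within each class the E17.5 bar stands above the E15.5 bar, which for Neurog3-positive cells rests on EA07, since 9 of 20 such cells of EA06 held 5 members, against 47.3% at E15.5. The E15.5 bar of hormone-positive cells includes 50 cells of EA05, of which 11 held at least 5 members.

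The genes most like the members were sought among 4269 other genes by the Spearman correlation with the mean log2 level of the 10, as the median of 7 plates. Zfp36, which binds and destabilises AU-rich mRNAs, ranked first at 0.38 (0.20 to 0.66 by plate). Btg2, an antiproliferative early response gene, followed at 0.29 and the small GTPase gene Rhob at 0.25, and both were positive on all 7 plates. Among the next 7 were Actg1 (0.23), Atf4 (0.23), Zfand5 (0.23), Mettl11a (0.21), Ppp1r15a (0.20) and Hes6 (0.20), of which Actg1, Atf4 and Hes6 were negative on at least 1 plate. The median over all candidates was 0.0031. Of a list of 38 other immediate early genes, 11 were frequent enough to enter, 10 of these were positive and 5 were above 0.1, against 5.76% of all candidates above 0.1. Of the 11 heat shock genes 8 entered, with 4 above 0.1 and Hsp90aa1 the highest at 0.17.

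Between stages, the E17.5 plates were set against EA05, the E15.5 plate whose titles share their form and which also has their low Rn45s share. Stage, strain and plate code change together here and cannot be told apart. The mix of cell classes differs as well. Neurog3-positive hormone-negative cells were 7 of 85 on EA05, 20 of 57 on EA06 and 35 of 72 on EA07. Jun and Atf3 also had their lowest levels of all plates on EA05. Of the 10 members, 7 were more than 2-fold higher at E17.5 and 0 lower, where 18.6% of 8160 genes were higher and 7.41% lower. The largest differences were in Jun (624.1 CPM at E17.5 and 54.01 CPM at E15.5, log2 ratio 3.41), Cyr61 (51.2 and 1.60 CPM, 3.09) and Jund (163.4 and 22.4 CPM, 2.62). Atf3 (1.65), Junb (1.44), Fos (1.18) and Dusp1 (1.05) completed the 7. The members' median was 1.31, against 0.15 over all genes, which TMM scaling moved by -0.13 and DESeq2 scaling by -0.16. With EA07 left out, 3 members were past 2-fold, Atf3 (1.84), Jun (1.33) and Jund (1.001), where 26.3% of 7827 genes were past it in either direction. Fos was then at 0.75, and Cyr61 was below 20 CPM on both plates. In the Neurog3-positive hormone-negative cells alone (20 on EA06 and 7 on EA05), Atf3 was at 0.12, Jun at -0.87 and Jund at 0.88. Of the other 38 immediate early genes, 26 were measured, 11 were higher (among them Per1 at 2.17, Gadd45b at 1.97, Mafk at 1.95 and Mcl1 at 1.92) and 1 was lower. Of these 26, 9 passed the filter of 20 CPM only through E17.5, Per1 (43.3 against 5.77 CPM), Gadd45b (87.3 against 18.6 CPM) and Mafk (36.9 against 5.82 CPM) among them, so the filter in part fixes the direction. Over the 16 genes at 20 CPM or more in both groups, 4 were higher and 0 lower, and without EA07, 8 of 24 were higher and 0 lower. Among the members, Cyr61 passed through E17.5 alone.

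Within Neurog3-positive hormone-negative cells (Neurog3 at 20 CPM or more and no hormone gene at 1000 CPM), 55 cells at E17.5 were set against those of the 4 endocrine and Neurog3 plates at E15.5 (39 on EA01, 42 on EA02, 43 on EA03 and 7 on EA05). Fos stood at 2588 CPM at E17.5 and 1018 CPM at E15.5 (log2 ratio 1.34), and the median cell at 1598 CPM and 616.8 CPM. Jund (2.82), Junb (2.10) and Jun (1.87) were higher too, so that 4 of 10 members were more than 2-fold higher and 0 lower, where 23.9% of 8041 genes were higher and 5.72% lower. The members' median of 0.41 was close to the 0.33 of all genes. TMM and DESeq2 scaling moved the median of all genes by -0.32 on the log2 scale and left 3 members past 2-fold. EA06 alone gave another set: Atf3 (1.19) and Fos (1.07) were higher, Dusp1 was lower (-1.22) and Cyr61 had no read in its 20 such cells, while Jun was below E15.5 at -0.92 (47.1% of genes differed by more than 2-fold with EA06 alone, and 35.3% with EA07 alone). Fos was at 1.07 on EA06 and 1.42 on EA07, both set against the same E15.5 cells, and no other member passed 2-fold upward with both plates. Of the phosphatases and feedback regulators, 3 of 9 were measured, and Dusp5 (1.81), Dusp6 (1.43) and Dusp10 (1.097) were past 2-fold at E17.5. EA07 gave 35 of the 55 cells, and without it Dusp5 was at 1.44, Dusp10 at 1.52 and Dusp6 at -0.22. The count without EA07 was still 3 higher and 0 lower, of 4 measured, so a gene not named here took the place of Dusp6. Dusp5 passed the filter through E17.5 alone (70.03 against 16.4 CPM), and Dusp10 was at 0.78 with TMM or DESeq2 scaling.

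Hormone-positive cells (insulin, glucagon, somatostatin, ghrelin or pancreatic polypeptide genes at 1000 CPM or more) had less of most members than Neurog3-positive hormone-negative cells. At E15.5, hormone-positive cells (19 on EA01, 16 on EA02, 17 on EA03 and 50 on EA05) were set against the Neurog3-positive cells of the same plates. Dusp1 had 205.6 CPM in hormone-positive and 549.6 CPM in Neurog3-positive cells (log2 ratio -1.40), Ier2 265.3 and 600.3 CPM (-1.16), Atf3 78.4 and 243.6 CPM (-1.58), Jun 83.02 and 187.0 CPM (-1.12) and Cyr61 16.7 and 64.2 CPM (-1.67). These 5 of 10 members were more than 2-fold lower and 0 were higher, where 12.8% of 7616 genes were lower and 16.7% higher. The members' median was -0.997, against 0.04 over all genes, and totals without Rn45s moved the median of all genes by -0.14. Fosb (79.6 and 61.8 CPM) and Junb (88.5 and 65.2 CPM) ran slightly the other way. EA05 gave 50 of the hormone-positive and 7 of the Neurog3-positive cells, and without it 2 members were lower (Ier2 at -1.59 and Atf3 at -1.01) and 1 was higher (Fosb at 1.02). Of the other 38 immediate early genes, 23 were measured, 9 were lower (among them Id1 at -2.49, Zfp36l1 at -2.04, Gadd45g at -1.81 and Trib1 at -1.80) and 0 were higher. Of these 23, 8 passed the filter only through the Neurog3-positive cells and could only come out lower, Id1 (0.709 against 27.03 CPM), Zfp36l1 (10.2 against 57.7 CPM) and Trib1 (15.2 against 65.2 CPM) among them, and 3 only through the hormone-positive cells. Over the 12 genes at 20 CPM or more in both classes, 5 were lower and 0 higher. Among the members, Cyr61 passed through the Neurog3-positive cells alone, at both stages.

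At E17.5, with 53 hormone-positive and 55 Neurog3-positive cells, the members' median was -0.57, against -0.09 over all genes. Cyr61 had 0.184 CPM in hormone-positive and 70.3 CPM in Neurog3-positive cells (7 and 2927 reads), and Jund 99.8 and 214.3 CPM (log2 ratio -1.07). These 2 of 10 members were more than 2-fold lower and 0 higher, where 14.4% of 8317 genes were lower and 9.72% higher. Egr1 came next, with 531.9 CPM in hormone-positive and 1015 CPM in Neurog3-positive cells (-0.93). Without EA07 the single member past 2-fold was Egr1 (-1.35), and without EA06 it was Cyr61. Without EA07, Jun (0.17) and Dusp1 (0.62) lay on the other side of 0, and Atf3 was at -0.90. The comparisons between stages and between classes share their Neurog3-positive cells.

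Within single plates, Fos, Egr1 and Ier2 were lower in hormone-positive cells on all 6 plates that held both classes. The log2 ratio of hormone-positive over Neurog3-positive cells ranged from -1.39 (EA05, with 7 Neurog3-positive cells) to -0.19 for Fos, from -1.35 to -0.21 for Egr1 and from -1.98 to -0.36 for Ier2. Of 7839 genes measured, 6.94% were lower and 7.4% higher on all 6 plates. Jund and Dusp1 were lower on 5 of the 6 plates, Jun, Junb, Atf3 and Cyr61 on 4, and Fosb on 3. Single cells overlapped throughout: at E15.5 the median cell had 66.7 CPM of Ier2 among hormone-positive and 462.4 CPM among Neurog3-positive cells, and the highest cells had 2304 and 3194 CPM. Duct markers moved with the same contrast: the 7 markers summed to 803.6 CPM in hormone-positive and 2719 CPM in Neurog3-positive cells at E15.5, and to 1663 and 3505 CPM at E17.5, with 1 of the 7 at 0 in each group. The medians of detected genes were 3005 and 2409 at E15.5, and 3012 and 3422 at E17.5. The part of either in the difference was not tested.

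**Figure D5:**
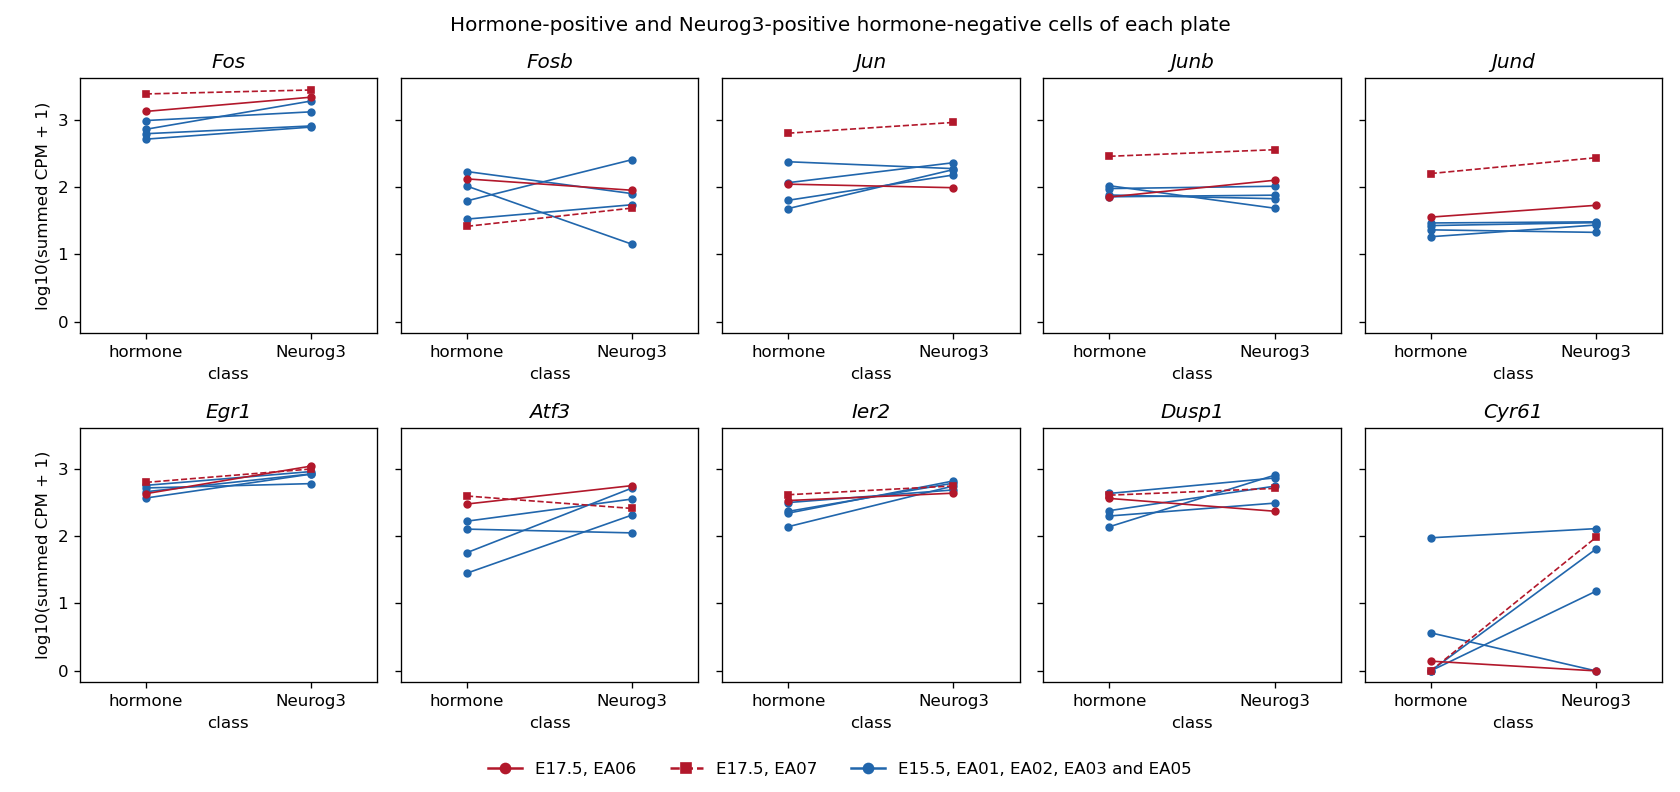
Summed level of each member, as log10(CPM + 1), in hormone-positive cells (left) and Neurog3-positive hormone-negative cells (right) of the same plate, with 1 line per plate (red E17.5, blue E15.5, dashed EA07). For Fos, Egr1 and Ier2 all 6 lines are lower on the hormone side, while those of Fosb cross.

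Pooled over plates, hormone types gave different levels at E15.5, with few cells each. The plates were not mixed alike: EA05 held 27 of the insulin and 9 of the glucagon cells. Among insulin cells alone, Fos was 1114 CPM on EA01 (10 cells), 364.8 CPM on EA02 (8 cells) and 340.9 CPM on EA03 (10 cells). The part of the plate in the differences between types was not tested. Fos had 485.1 CPM in the 55 insulin cells, 835.8 CPM in 16 glucagon cells, 1202 CPM in 14 somatostatin cells, 753.7 CPM in 10 ghrelin cells and 1147 CPM in 7 pancreatic polypeptide cells. Atf3 had 15.02 CPM in insulin and 32.9 CPM in glucagon cells, against 346.9 CPM in somatostatin cells. Ier2 was lowest in glucagon cells, at 104.9 CPM, and 484.2 CPM in pancreatic polypeptide cells. At E17.5 the insulin cells were at the upper end for Fos, with 2865 CPM in 14 cells, beside 2410 CPM in 13 somatostatin, 1142 CPM in 18 ghrelin, 1353 CPM in 5 pancreatic polypeptide and 508.1 CPM in 3 glucagon cells. Groups this small are carried by single cells, and 1 of the 5 pancreatic polypeptide cells gave 99.3% of their summed Atf3. Cells of neither class had more Fos than both classes at each stage, at 3507 CPM in 21 cells at E17.5 and 1682 CPM in 67 cells at E15.5 (EA04 left out).

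Among Neurog3-positive hormone-negative cells the level of Neurog3 ran against that of Fos. On the 5 plates with at least 15 such cells the Spearman correlation of Fos with Neurog3 was negative each time, with a median of -0.32 (-0.43 to -0.17). Junb (-0.17), Fosb (-0.15) and Egr1 (-0.15) were also negative on all 5, while Jun (0.03), Jund (-0.01) and Dusp1 (-0.01) had no shared sign. The plate nearest 0 had -0.008 for Fosb and -0.015 for Egr1. How many of all genes were negative on all 5 plates was not computed, and these members also correlate with each other. These correlations were weak and are given as a description.

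The plates coded Neurog3 were set against the plate coded duct, both at E15.5. Dusp1 differed most, with a log2 ratio of 2.40, and 55.9% of Neurog3-coded and 33.3% of duct-coded cells at 50 CPM. Fosb had 77.4 CPM in Neurog3-coded and 25.1 CPM in duct-coded cells (1.45), Fos 1129 and 494.9 CPM (1.18) and Egr1 801.3 and 402.4 CPM (0.98). Cyr61 ran the other way, with 53.4 and 124.1 CPM (-1.14). In all, 3 of 10 members were more than 2-fold higher and 1 lower, where 20.7% of 7964 genes were higher and 18.4% lower, so the members' count was close to that of all genes. Junb, at 0.03, changed sign with 7 of the alternative settings. Without EA01 the members past 2-fold were Dusp1 (2.14) and Cyr61 (-3.23). Without EA03 they were Dusp1, Fosb, Fos and Egr1 (1.07), all higher, and Cyr61 was at -0.39. The share of cells with Fos was alike in both, at 76.9% of Neurog3-coded and 78.8% of duct-coded cells, while the median cell had 665.4 CPM in Neurog3-coded and 237.8 CPM in duct-coded cells. Plate code and plate cannot be told apart, since the code duct has 1 plate.

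Within the plate coded duct the members sorted with the kind of cell, by thresholds chosen after the values were seen. The 43 cells with Cpa1 at 1000 CPM or more had Fos at 338.8 CPM, Jun at 208.4 CPM, Ier2 at 403.6 CPM and Cyr61 at 21.3 CPM. The 13 cells with Col3a1 had Fos at 1079 CPM and Atf3 at 333.9 CPM, but Jun at 34.6 CPM, Junb at 18.8 CPM and Ier2 at 114.8 CPM. The 10 remaining cells, with the ductal gene Spp1 at 10023 CPM and Sox9 at 344.9 CPM, had Fos at 379.5 CPM, Ier2 at 616.5 CPM and Cyr61 at 611.8 CPM. All 10 of these had Cyr61 at 50 CPM or more, against 6 of the 43 and 5 of the 13.

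Cyr61 was found in few cells across the series, and these were of several kinds. Of its 40 cells at 50 CPM or more, 21 were on the plate coded duct (6 with Cpa1, 5 with Col3a1 and 10 with neither). Another 15 were Neurog3-positive and hormone-negative, 2 were somatostatin cells and 2 were of neither class on EA07. No insulin, glucagon or ghrelin cell had a Cyr61 read at either stage. Neurog3-positive cells with Cyr61 (15) had Spp1 at 5794 CPM, against 557.5 CPM in the 171 without, Sox9 at 155.8 and 85.1 CPM, and Chga, a granule protein gene of maturing endocrine cells, at 334.7 and 1649 CPM. Neurog3 itself was at a summed 3200 CPM in cells with Cyr61 and 3873 CPM in those without, while the median cell had 3760 and 3616 CPM. None of the 20 Neurog3-positive cells of EA06 had a Cyr61 read, whereas 5 of those on EA07 reached 50 CPM.

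Heat shock genes are also known to be induced by handling of tissue. At E15.5, of 9 measured, Hspa1a was higher in hormone-positive cells (34.8 CPM, against 6.79 CPM in Neurog3-positive cells) and Dnajb1 lower (69.9 against 196.2 CPM), with a list median of -0.29. At E17.5, of 11 measured, Hspa1a (216.7 against 32.9 CPM), Hspa1b (33.9 against 1.63 CPM) and Hspb1 (20.4 against 5.12 CPM) were higher in hormone-positive cells and 0 were lower, with a list median of -0.12. Hspa1b and Hspb1 at E17.5, and Hspa1a at E15.5, passed the filter through the hormone-positive cells alone. Over the genes at 20 CPM or more in both classes, 1 was lower of 8 at E15.5 and 1 was higher of 9 at E17.5, and without EA07 the E17.5 count was 2 higher and 1 lower of 10. Hspa1a and Hspa1b are nearly identical, so reads may be split between them. Among the upstream factors, 9 of 15 were measured at E15.5, where Mapk14 was higher (1.35) and Mapk3 lower (-1.31) in hormone-positive cells, and Srf was at -0.89. Among the stress genes around Atf3, 5 of 8 were measured and Asns alone passed 2-fold (2.12), while Atf4 was at -0.99. Whether dissociation or sorting set the level of any member was not tested, because no undissociated tissue was among the samples analysed.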

How the data were processed

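The deposited table holds raw read counts per gene and cell; per the submitters' processing notes the tools were FastQC, STAR and HTSeq with genome build mm10, with no version stated. The counts carry no molecular identifiers and no stated strand. Smart-seq2 reads cover whole transcripts, so longer transcripts collect more of them. Groups follow the labels; the table's own column names give all plates the knock-in line. Counts of the cells of a group were summed and scaled to CPM, with exact Poisson intervals, and shares have Clopper-Pearson intervals. Log2 ratios used a pseudocount of 5 CPM over genes at 20 CPM or more in either group, and a call was a ratio past 2-fold. With 1 sample a group no p-value was computed. Both DESeq2 1.42.0 and edgeR 4.0.16 gave scaling factors only, as alternatives. The ratios were tested on simulated data. No 2 cells had identical counts. Doublets were not called. In the classes, 14 cells lay within 2-fold of the Neurog3 threshold and 16 of the hormone threshold, and 26 of 155 hormone-positive cells were also Neurog3-positive. All members are named, and up to 4 genes of another list with the largest ratios. One of the 10 genes most like the members is not reported here. The members, lists and thresholds were chosen with earlier results of these data known. Gene positions are from GENCODE on GRCm38. Python 3.11.15, pandas 2.3.3, numpy 2.4.6 and scipy 1.17.1 were used.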

Additional observations from a re-analysis of the deposited data

How the results depend on the processing

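Of 96 recomputed values of the members under other scalings, pseudocounts, filters, thresholds and left-out plates, 83 stayed within 1.5 times the count or within the spread, and 13 moved. Of 18 recomputed counts of the other gene lists, under settings chosen after seeing the data, 14 stayed and 4 moved, all 4 with genes at 20 CPM or more in both groups. Leaving out 1 plate at a time gave from 2 to 4 members past 2-fold for Neurog3 code over duct code (2 without EA01), from 3 to 8 for E17.5 over EA05 (3 without EA07), from 3 to 6 for hormone-positive over Neurog3-positive cells at E15.5 (3 without EA05) and 1 at E17.5, without either plate. That last count was also 1 with TMM factors, DESeq2 size factors or a pseudocount of 20 CPM, and 4 with a hormone threshold of 3000 CPM, against 2 as reported. For Neurog3-positive cells of E17.5 over E15.5 the count stayed at 4 without EA07, but 2 members were then higher and 2 lower. The share of cells with at least 5 members was 59.2% at 20 CPM and 41.8% at 100 CPM, and from 45.2% (without EA07) to 55.1% (without EA05) with a plate left out. The correlation of member pairs moved by less than its spread in all 13 settings. The cause of these moves was not tested. For the comparisons between plates, no paired analysis was possible because the cells carry no replicate number that links plates; the 2 classes were paired by plate in the report, on the 6 plates that held both. Cyr61 had no read in 447 cells, Atf3 in 328 and Fosb in 304, so single cells limit their values.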
